A study of Mus musculus with 6 samples.

Results

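The S100 genes of myeloid cells were followed through 6 poly(A) RNA-seq libraries of mouse bone marrow leukaemia cells labelled MA9, which commonly stands for the MLL-AF9 fusion oncogene. The 8 genes, S100a8, S100a9, S100a10, S100a4, S100a6, S100a11, S100a1 and S100a13, were found by symbol among the 49585 genes of the deposited count table, through their Ensembl identifiers. They were chosen by their CPM in these same libraries, set between the genotypes. Levels and differences between genotypes are therefore given as a description, without a test. The 3 libraries Gata2 f/f carried loxP-flanked alleles of Gata2, which encodes a transcription factor of haematopoietic stem cells. The 3 libraries Gata2 KO were labelled Gata2 -/-, and their sample descriptions read Cre where the others read f-f, so that deletion and Cre cannot be told apart. Every culture, of either genotype, had been given 5 uM Nutlin, which blocks the binding of MDM2 to p53, for 18 h, in medium with IL-3, IL-6 and stem cell factor. Libraries of each genotype are numbered 1 to 3, with no label that explains the numbering.

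S100 proteins are small calcium-binding proteins with a pair of EF-hand loops that mostly work as dimers. S100A8 and S100A9 form calprotectin, a heterodimer stored in large amounts in the cytosol of neutrophils and monocytes, which binds zinc and manganese and signals through TLR4 and RAGE once released. S100A10 and S100A11 bind annexins at membranes, S100A6 binds the calcyclin-binding protein, S100A4 binds non-muscle myosin, S100A1 is best known from heart and skeletal muscle, and S100A13 takes part in export of proteins that lack a signal peptide.

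All 8 genes lie on chromosome 3 of GRCm38, the assembly of the mm10 build named in the submitters' processing notes. A first cluster of 6 genes spans 185 kb and holds, in order, S100a1, S100a13, S100a4, S100a6, S100a8 and S100a9. A second, 2.82 Mb further along, spans 44 kb and holds S100a11 and S100a10. S100a8 (ENSMUSG00000056054.9, 90668978 to 90670035, plus strand) and S100a9 (ENSMUSG00000056071.12, 90692632 to 90695721, minus strand) face each other over 22.6 kb. S100a1 (90511034 to 90514392, minus strand) and S100a13 (90514435 to 90524581, plus strand) point away from each other, with 42 bases between their starts. All are protein-coding.

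The stretches just before the first annotated base of S100a8 and S100a9 are shown because they are the calprotectin genes, and those of S100a6 and S100a11 for comparison, as members of either cluster that were called between library numbers. The table of RefSeq promoters (GRCm38.p6) held 7 of the 8 genes, all but S100a10, each as 250 bases before to 50 bases after the start. Sequences run 5′ to 3′ on the gene's own strand. Capitals mark matches to the motifs searched, which were the GATA motif (spelled AGATAA or AGATAG or TGATAA or TGATAG), the C/EBP motif (TTNNGNAA or TGNNGNAA) and the ETS motif (GAGGAA) on both strands and the TATA box (spelled TATAAA) on the strand of the gene.
S100a8, chr3:90668821-90668977, plus strand: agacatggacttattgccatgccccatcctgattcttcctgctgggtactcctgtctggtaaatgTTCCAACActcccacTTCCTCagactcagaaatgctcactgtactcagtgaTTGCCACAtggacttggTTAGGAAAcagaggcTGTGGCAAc
S100a9, chr3:90695722-90695971, minus strand: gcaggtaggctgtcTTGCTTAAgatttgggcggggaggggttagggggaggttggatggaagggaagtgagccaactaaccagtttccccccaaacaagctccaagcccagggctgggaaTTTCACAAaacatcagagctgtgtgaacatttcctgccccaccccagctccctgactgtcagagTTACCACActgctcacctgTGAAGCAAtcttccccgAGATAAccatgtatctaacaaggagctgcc
S100a6, chr3:90612644-90612881, plus strand: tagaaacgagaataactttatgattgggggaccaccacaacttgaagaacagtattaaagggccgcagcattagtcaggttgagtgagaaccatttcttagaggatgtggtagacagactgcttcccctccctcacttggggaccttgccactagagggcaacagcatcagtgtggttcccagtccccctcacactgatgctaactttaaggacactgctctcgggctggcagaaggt
S100a11, chr3:93520246-93520487, plus strand: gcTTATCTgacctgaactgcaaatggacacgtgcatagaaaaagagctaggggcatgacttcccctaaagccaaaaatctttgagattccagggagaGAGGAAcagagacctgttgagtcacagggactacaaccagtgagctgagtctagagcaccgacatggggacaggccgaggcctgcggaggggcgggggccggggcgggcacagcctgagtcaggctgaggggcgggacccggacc

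The S100a8 and S100a9 windows each held 4 matches to the C/EBP pattern, a short and loose one that 66.3% of the 32851 RefSeq promoter windows hold at least once and 5.31% at least 4 times. The windows of S100a4, S100a1 and S100a13 also held matches to it, and those of S100a6 and S100a11 held none. S100a9 had a GATA match 30 bases before its start, and S100a11 had one 248 bases before its start. Of all windows, 29.8% hold such a match. A TATA box was found 30 bases before the RefSeq start of S100a8, in bases not printed because another annotation counts them as exon, and at the first base of S100a9 (8.32% of all windows hold one). S100a4 also had a TATA box, 31 bases before its start. The windows of S100a8, S100a9, S100a4 and S100a6 held 4, 2, 2 and 6 CpG dinucleotides. Those of S100a11, S100a1 and S100a13 held 15, 11 and 14, against a median of 7 over all windows. The windows of S100a1 and S100a13 overlap, so their CpG counts are not separate, and their C/EBP match is the same stretch of bases. A match describes the letters in the window and says nothing of binding in these cells.

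Total counts ran from 17138687 to 26440960 per library. Levels are CPM, counts scaled to a common library size by TMM. Nothing says that the 3 libraries of a genotype came from separate animals, so their spread may be technical. The targeted gene went against the label of 1 library. Gata2 was at 33.6, 22.3 and 18.4 CPM for f/f 1, 2 and 3 against 5.44 CPM in KO 1 and 4.33 CPM in KO 3, but it reached 43.3 CPM in the library labelled Gata2 KO 2. Log2 fold changes of the tested S100 genes between genotypes are given with and without this library. Most other values include it. In these bulk samples a change in the share of cells that express a gene and a change of RNA per cell cannot be told apart.

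S100a8 and S100a9 were high in KO 1 and KO 3 and not in the library labelled Gata2 KO 2. S100a8 was at 66.6, 165 and 279 CPM for f/f 1, 2 and 3, against 366, 149 and 1002 CPM for KO 1, 2 and 3. S100a9 was at 58.4, 145 and 213 CPM for f/f 1, 2 and 3, against 494, 130 and 692 CPM for KO 1, 2 and 3. For both genes KO 1 and KO 3 lay above every f/f library, and the library labelled KO 2 lay within the f/f range, so the groups overlapped. The means were 170 ± 106 and 506 ± 443 CPM for S100a8 and 139 ± 77.5 and 438 ± 285 CPM for S100a9 (SD, n = 3 each). The log2 fold change, KO over f/f, was 1.57 ± 0.76 (SE) for S100a8 and 1.66 ± 0.68 for S100a9 in edgeR's fit over all genes. Without the library labelled Gata2 KO 2 it was 1.999 for S100a8 and 2.09 for S100a9, and without KO 3 it was 0.57 and 1.13.

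**Figure D1:**
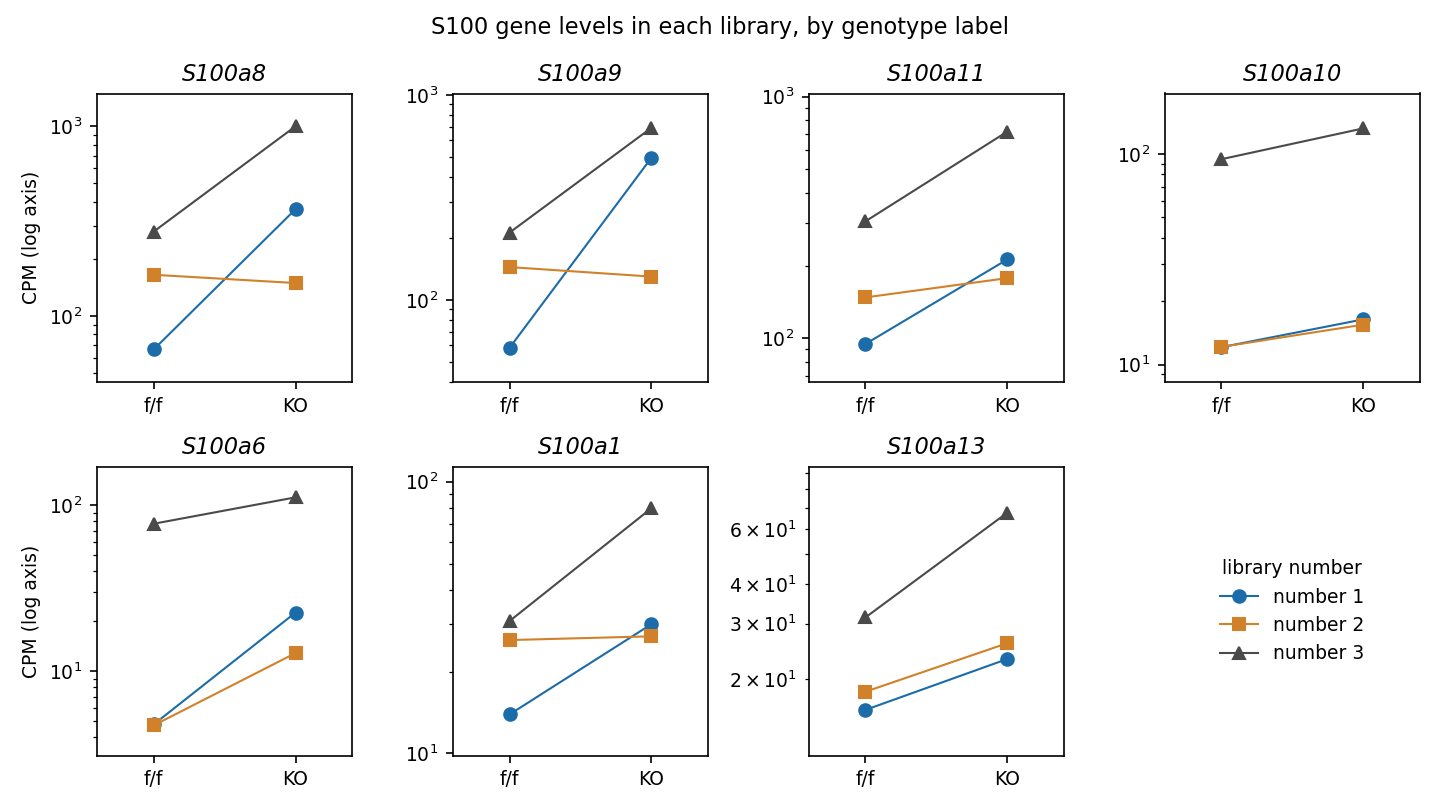
CPM on a log axis (vertical) of the 7 tested S100 genes in each of the 6 libraries, f/f on the left and KO on the right of each panel, with a line joining the libraries of one number. The KO library lies far above the f/f library for S100a8 and S100a9 in numbers 1 and 3 and just below it in number 2, while in S100a10 and S100a6 the libraries numbered 3 sit above the other 4.

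The ratio of S100a9 to S100a8 varied less than either gene did. In CPM it was 0.877, 0.877 and 0.765 in Gata2 f/f 1, 2 and 3, and 0.872 and 0.690 in the libraries labelled KO 2 and 3. In CPM only KO 1 had more S100a9 than S100a8, with a ratio of 1.35. Between libraries the ratio thus moved over a range of 0.690 to 1.35 while S100a8 itself went from 66.6 to 1002 CPM. CPM takes no account of gene length. Per kilobase of merged exon, S100a9 was above S100a8 in every library except KO 3 (1325 against 1443). With the longest transcript as length, S100a8 was the higher on average (678 against 556 for S100a9).

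S100a11, another abundant member, encodes calgizzarin, a partner of annexin A1. It was at 94.6, 148 and 305 CPM for f/f 1, 2 and 3, against 212, 177 and 717 CPM for KO 1, 2 and 3, with overlapping groups and a log2 fold change of 1.02 ± 0.65. KO 3 held the highest value and f/f 1 the lowest. Without KO 3 the log2 fold change was 0.07, and without the library labelled KO 2 it was 1.34.

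S100a10 and S100a6 were high in both libraries numbered 3 and low in the other 4. S100a10, which encodes the annexin A2 ligand p11, was at 12.1, 12.1 and 94.3 CPM for f/f 1, 2 and 3, against 16.4, 15.5 and 132 CPM for KO 1, 2 and 3. S100a6, which encodes calcyclin, was at 4.79, 4.73 and 77.2 CPM for f/f 1, 2 and 3, against 22.5, 12.9 and 111 CPM for KO 1, 2 and 3. In both genes the libraries numbered 3 were the 2 highest of the 6, in either genotype. The log2 fold changes between genotypes were 0.47 ± 1.11 for S100a10 and 0.76 ± 1.25 for S100a6, with standard errors larger than the values. Without KO 3 they turned to -1.33 and -0.73, and without f/f 3 they were 2.15 and 3.33, since each of these fits keeps a single library numbered 3. Without the library labelled KO 2 they were 0.90 and 1.20.

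The neighbours S100a1 and S100a13 had low levels and a similar layout. S100a1 was at 13.9, 26.1 and 30.7 CPM for f/f 1, 2 and 3, against 29.9, 27.0 and 79.9 CPM for KO 1, 2 and 3 (log2 fold change 0.95 ± 0.50). S100a13 was at 15.97, 18.2 and 31.4 CPM for f/f 1, 2 and 3, against 23.2, 26.0 and 67.5 CPM for KO 1, 2 and 3 (0.83 ± 0.48). For both, KO 3 was the highest library, f/f 1 was the lowest and the groups overlapped. Without KO 3 the log2 fold changes were 0.24 for S100a1 and 0.15 for S100a13. Without the library labelled KO 2 they were 1.21 and 1.04.

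S100a4 was close to absent from the table, with 1, 0 and 3 reads in Gata2 f/f 1, 2 and 3 and 0, 1 and 3 reads in Gata2 KO. A count of 0 allows up to 3 reads, which is 0.134 CPM for f/f 2 and 0.143 CPM for KO 1. Of the 584 exon bases of S100a4, 302 are shared with Gm42674, an overlapping gene on the same strand that had no read in any library. How reads common to both were counted is not given in the sources used here, so the level of S100a4 is uncertain and no fold is given. It did not pass the filter on low counts. The other 7 passed it with at least 84 reads in each library.

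The log2 fold change was above 0 in all 7 tested genes, and its median was 0.95. Over all 13744 genes tested the median was 0.02, and 52.5% were positive. None of the 7 separated the genotypes completely, against 5.42% of all genes whose groups did not overlap. EdgeR's quasi-likelihood test called 0% of all genes and none of the 7 (171 genes had an unadjusted p under 0.05). With the library number as a block it called 0% as well. DESeq2 with the block called 3 of the 7, S100a8, S100a6 and S100a11, against 1.75% of the genes it tested. Since the genotype contrast chose the genes, nothing is read from these counts.

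Libraries of equal number, whose deviations from the group means went together, were set beside each other. S100a10, S100a6, S100a11, S100a1 and S100a13 were higher in the KO library of all 3 numbers, as were 20.7% of all genes. By number, from 1 to 3, the log2 difference of KO from f/f came to 0.43, 0.35 and 0.49 for S100a10 and 1.16, 0.26 and 1.23 for S100a11. For S100a8 they were 2.46, -0.14 and 1.85 and for S100a9 3.08, -0.15 and 1.70. The number with the doubted Gata2 library was the one in which S100a8 and S100a9 were not higher in KO. S100a6 differed by 2.21, 1.43 and 0.53, and so had a higher value in KO also for number 2. With the number as a block the log2 fold changes were 1.41 ± 0.49 for S100a8, 1.56 ± 0.59 for S100a9, 1.37 ± 0.33 for S100a6 and 0.43 ± 0.16 for S100a10. Without the library labelled KO 2, and with the block, they were 2.15, 2.38, 1.34 and 0.46.

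**Figure D2:**
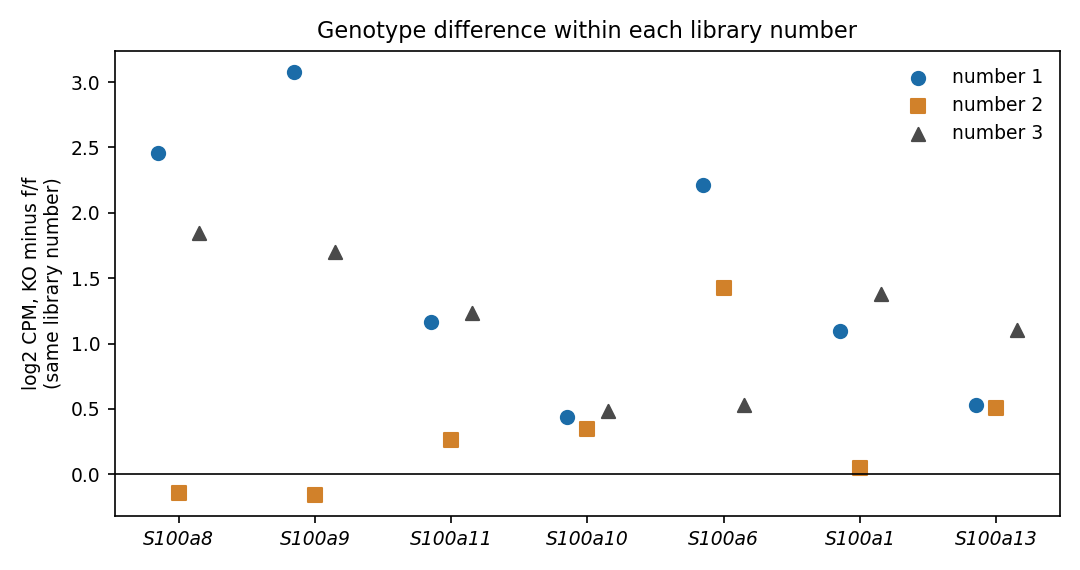
Log2 CPM in the KO library minus that in the f/f library of the same number (vertical), for each tested S100 gene and each number. For number 2, S100a8 and S100a9 lie just below 0 (-0.14 and -0.15) and the other 5 genes above it, and for numbers 1 and 3 all 7 lie above 0.

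The contrast of S100a8 and S100a9 with the other members was taken as the mean log2 CPM of that pair minus the mean of the 5 others tested. This difference was 1.91, 2.87 and 1.73 in Gata2 f/f 1, 2 and 3 and 3.59, 2.20 and 2.56 in Gata2 KO. KO 1 was highest and f/f 3 lowest, and the groups overlapped. Its mean was 2.17 ± 0.61 in f/f and 2.78 ± 0.72 in KO (SD, n = 3 each), a difference of 0.61 that was no larger than the spread between libraries. Within numbers 1, 2 and 3 it was 1.68, -0.67 and 0.83. Without Gata2 KO 1 the difference between genotypes was 0.21, and without the library labelled KO 2 it was 0.90. The pair gave 46.9% to 59.7% of the summed CPM of the 8 genes in Gata2 f/f and 51.9% to 73.9% in Gata2 KO.

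Library numbers were compared over all genes with the genotype in the model. The F test asked for any difference among the 3 numbers, and a gene that passed it is called between numbers. The log2 differences of number 3 printed beside its adjusted p-values are descriptions without a test of their own. The genes were chosen on the contrast of genotypes, but from the same 6 values, so the adjusted p-values below describe these libraries and are no independent evidence. Of the 7 genes, S100a10, S100a6, S100a11 and S100a13 differed between numbers, against 9.09% of all 13744 genes, and 6.63% that were also higher in number 3 (edgeR's quasi-likelihood F test, Benjamini-Hochberg). These shares of all genes are also the background for the counts of genes called between numbers in the lists below. The values by number had been seen before this test was made. S100a10 had a log2 difference of 3.01 ± 0.17 (SE) between number 3 and the mean of numbers 1 and 2 (adjusted p = 0.00348). S100a6 had 3.38 ± 0.33 (adjusted p = 0.0101), S100a11 had 1.62 ± 0.23 (adjusted p = 0.0238) and S100a13 had 1.18 ± 0.21 (adjusted p = 0.0410). All 4 were higher in number 3. Leaving out single libraries kept the calls of S100a10 and S100a6, while S100a11 was not called without KO 3 (adjusted p = 0.0915) and S100a13 not without KO 1, 2 or 3 (adjusted p = 0.0768, 0.0667 and 0.0828).

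S100a8, S100a9 and S100a1 were not called between numbers. S100a8 had a log2 difference of 1.62 ± 0.46 (adjusted p = 0.127), S100a9 1.12 ± 0.54 (adjusted p = 0.344) and S100a1 1.08 ± 0.29 (adjusted p = 0.102). DESeq2's likelihood ratio test called S100a8 and S100a1 too (adjusted p = 0.00128 and 0.00822). Without f/f 2 edgeR called all 7 genes, S100a8 was also called without KO 2 (adjusted p = 0.00192), and S100a1 also without f/f 3 (adjusted p = 0.0480). Whether the difference between numbers was smaller for S100a8 and S100a9 than for the other genes was not tested. In S100a10, S100a6, S100a11, S100a1 and S100a13 both libraries numbered 3 lay above the other 4, as in 21.1% of all genes. In S100a8 and S100a9 the library KO 1 lay above f/f 3.

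Other genes nearby were tested as well. Within 100 kb of the 8 genes, 7 further genes were tested, and none was called between numbers. Over all genes 9.09% were called, so for so few genes this count is near that share. Chtop, which encodes a chromatin and RNA export factor and lies next to S100a1, was at 149 to 204 CPM in all 6 libraries. Ilf2, an RNA-binding protein gene, was at 93.9 to 150 CPM. S100a16, named here after its values were seen as the only other family gene tested, was at 0.36 to 0.92 CPM. The remaining family genes S100a3, S100a5, S100a7a, S100a14, S100b, S100g and S100z were under 1 CPM in every library, and S100a14, S100g and S100z had no read.

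**Figure D3:**
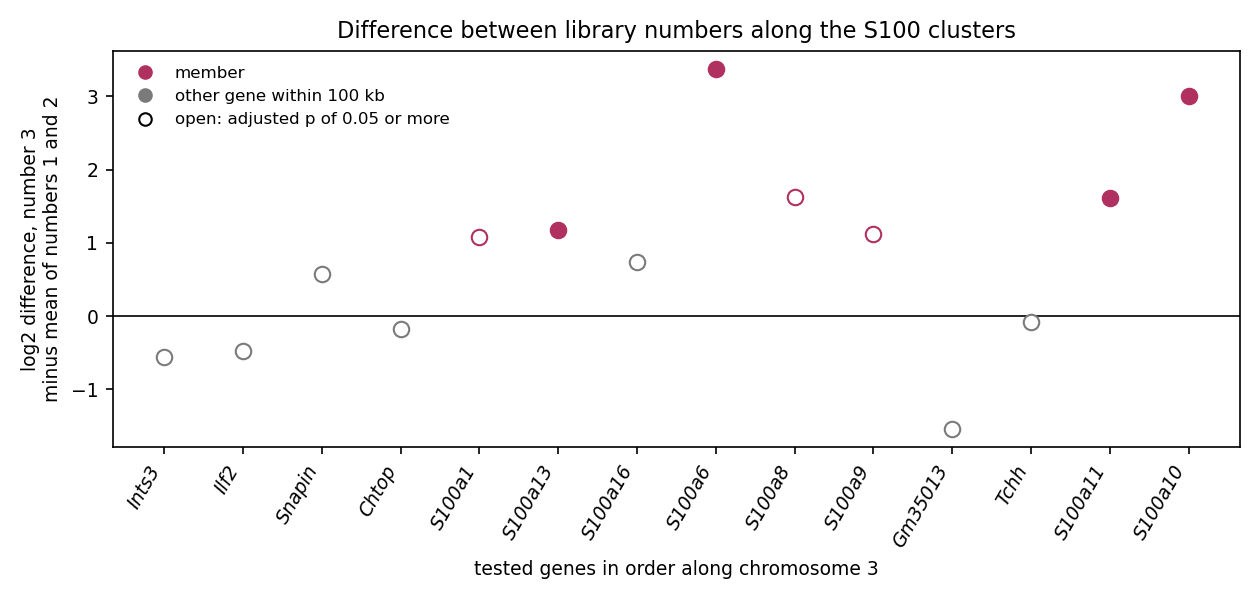
Log2 difference between number 3 and the mean of numbers 1 and 2 (vertical) for the tested S100 genes and the 7 other tested genes within 100 kb, in order along chromosome 3. Open circles did not pass the F test of any difference between numbers. S100a6 (3.38) and S100a10 (3.01) stand highest, and the neighbours lie between -1.54 and 0.74.

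Levels of different genes were compared per length, as CPM per kilobase of merged exon (RPKM). S100a9 (553 RPKM over the 6 libraries), S100a11 (539) and S100a8 (487) formed the upper level. S100a1 (49.8), S100a13 (42.5), S100a10 (38.8) and S100a6 (28.4) formed the lower level, and S100a4 was last at 0.102. Within each level, the means of neighbours in this order differed by less than the spread of each gene, since every gene ranged over several-fold between libraries. Compared inside single libraries, S100a10 was above S100a6 in all but KO 1, and S100a1 above S100a13 in all but f/f 1. These orders were not tested. S100a9 was at 266 ± 149 RPKM in f/f and 840 ± 546 in KO, S100a11 at 357 ± 214 and 721 ± 591, and S100a8 at 245 ± 153 and 728 ± 638 (SD, n = 3 each). By merged exon length S100a11 was the highest member in each f/f library and in the library labelled KO 2, S100a9 was highest in KO 1 and S100a8 in KO 3. With the longest transcript as length, S100a8 came first at 678 RPKM and S100a10 moved to the head of the lower level at 68.7.

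**Figure D4:**
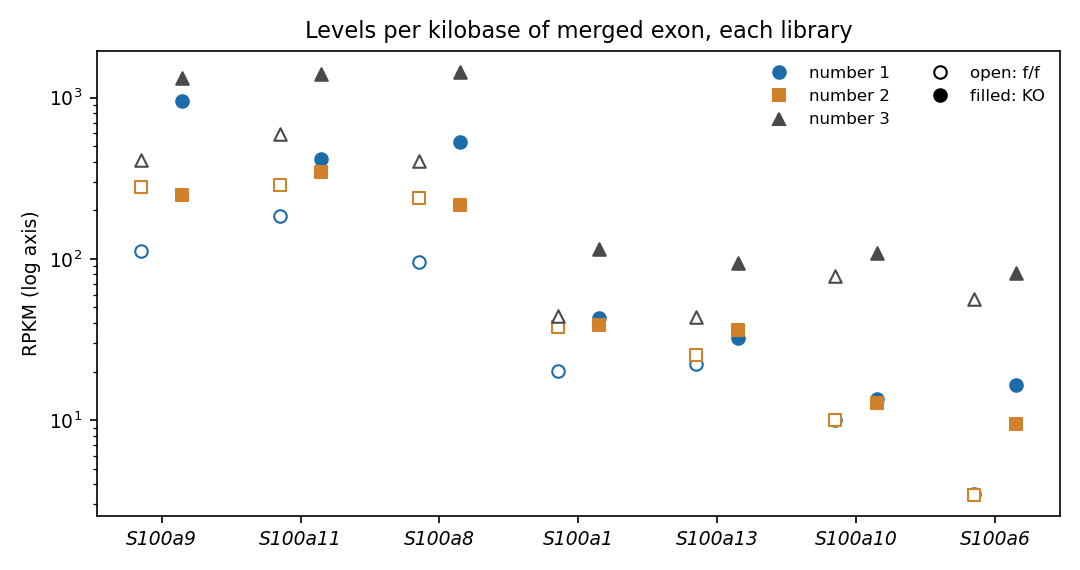
RPKM on a log axis (vertical) of the 7 tested S100 genes in each library, open symbols f/f and filled symbols KO, with shape and colour for the library number. S100a9, S100a11 and S100a8 lie between 96.0 and 1443 RPKM, and the other 4 genes between 3.46 and 115 RPKM.

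The proteins that S100A10, S100A11, S100A6, S100A4 and S100A13 bind or help to export were followed in a list of 13 genes, of which 11 were tested and 5 differed between numbers, 4 of them higher in number 3. Anxa2, the annexin held by S100A10, was at 91.6, 98.7 and 357 CPM for f/f 1, 2 and 3, against 245, 143 and 710 CPM for KO 1, 2 and 3. Anxa1, the annexin bound by S100A11, was at 18.1, 24.8 and 130 CPM for f/f 1, 2 and 3, against 69.3, 31.3 and 218 CPM for KO 1, 2 and 3. As for S100a10 and S100a11, the libraries numbered 3 were highest in each genotype. Their log2 differences between number 3 and the mean of numbers 1 and 2 were 1.90 ± 0.20 for Anxa2 (edgeR, adjusted p = 0.0123) and 2.37 ± 0.31 for Anxa1 (adjusted p = 0.0192).

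Among the other partners, Anxa6 and Il1a, a cytokine exported with S100A13, were also called by edgeR's F test and higher in number 3. By this test Anxa6 had an adjusted p = 0.0424 (difference 0.95 ± 0.17) and Il1a 0.0159 (3.35 ± 0.40 at no more than 7.14 CPM). Myh9, the non-muscle myosin heavy chain bound by S100A4, was called with a difference of -0.32 ± 0.16 (adjusted p = 0.0263), and both libraries numbered 1 were highest, at 911 and 1425 CPM against 423 to 703 CPM in the other 4. Cacybp, which encodes the calcyclin-binding protein, was at 278 ± 65.4 CPM in f/f and 213 ± 61.8 in KO (SD, n = 3 each). In the comparison of genotypes 6 of the 11 were higher in KO by log2 fold change (median 0.44), near the 52.5% of all genes. EdgeR called none of the 11 between genotypes.

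Receptors and co-receptors of released S100A8 and S100A9 were tested for 10 of 11 listed genes. Cd14, Cd36 and Alcam differed between numbers, all higher in number 3. Cd14, the endotoxin co-receptor, was at 24.5, 23.4 and 133 CPM for f/f 1, 2 and 3, against 28.7, 73.0 and 249 CPM for KO 1, 2 and 3 (2.42 ± 0.28, edgeR, adjusted p = 0.0141). Cd36, a scavenger receptor, had 1.78 ± 0.33 (adjusted p = 0.0461) and the adhesion molecule Alcam 2.08 ± 0.35 (adjusted p = 0.0358). Ager, which encodes RAGE, was at most at 0.63 CPM and was not tested. Emb, encoding embigin, and Bsg, encoding basigin, were the most abundant, at 777 to 1521 and 315 to 627 CPM. Nptn, encoding neuroplastin, was at 112 to 141 CPM in all libraries. Tlr4 was at 62.9 ± 37.6 CPM in f/f and 52.2 ± 13.1 CPM in KO. Between genotypes the log2 fold change was above 0 in 9 of the 10 genes tested, all but Tlr4 (-0.27 ± 0.45), against 52.5% of all genes. The median of the 10 was 0.42, and edgeR called none.

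None of 7 transcription factor genes whose products bind regulatory DNA of S100a8 and S100a9 in myeloid cells was called between numbers by edgeR, against 9.09% of all genes. Between genotypes edgeR called no gene at all. Cebpd came nearest to a call between numbers (0.92 ± 0.20, edgeR's F test, adjusted p = 0.0513). Its log2 fold change between genotypes, 0.85 ± 0.44, was the highest of the 7. Spi1, which encodes PU.1, was at 259, 220 and 352 CPM for f/f 1, 2 and 3, against 500, 299 and 636 CPM for KO 1, 2 and 3. In all 3 numbers KO exceeded f/f, and the groups overlapped. Cebpa was at 241 ± 45.4 CPM in f/f and 284 ± 69.5 in KO, Hif1a at 201 ± 35.0 and 169 ± 18.2, and Stat3 at 153 ± 25.7 and 189 ± 59.6 (SD, n = 3 each). Over the 7 factors 6 were higher in KO by log2 fold change (median 0.31), against 52.5% of all genes.

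Markers of mature myeloid cells were mostly highest in the libraries numbered 3, where S100a10, S100a6 and S100a11 were highest too. S100a8 and S100a9 had a different order, with KO 1 above f/f 3. The summed level of 18 late neutrophil markers was 366 to 1941 CPM in f/f and 556 to 2652 CPM in KO, and 8 of 17 tested differed between numbers with the higher level in number 3. Between genotypes 14 of the 17 were higher in KO by log2 fold change, as were 52.5% of all genes. Their median was 1.16, and edgeR called none of them between genotypes. In the late neutrophil markers Ngp, Cd177, Cxcr2, Chil3, Csf3r, Itgb2l and Padi4, KO 1 also lay above f/f 3. In the others of that list KO 1 lay below f/f 3. The sum of 14 monocyte and macrophage markers was 905 to 4337 CPM in f/f and 1331 to 4508 CPM in KO, and 9 of 14 were called, all higher in number 3. Of these 14, 12 were higher in KO by log2 fold change (median 0.39), against 52.5% of all genes. The sums of these 14 were 4337 and 4508 CPM in the libraries numbered 3 and 905 to 1904 CPM in the other 4. Of the markers in both lists, Mmp8, a collagenase of neutrophil granules, and Mpeg1, a macrophage gene, peaked in f/f 3, at 992 and 1089 CPM. They were at 500.0 and 899.6 CPM in KO 3. Others peaked in KO 3, among them Lcn2 (606 CPM, with 215 CPM in f/f 3) and Cd68 (723 CPM, with 371 CPM in f/f 3). Ngp, a neutrophil granule gene, was at 374 CPM in KO 1 and 210 CPM in f/f 3, and Ly6c2 was at 554 to 1025 CPM. Of 10 leukaemia and progenitor markers, 2 were called between numbers, Itgam higher in number 3 and Myb lower (-1.26 ± 0.19, edgeR, adjusted p = 0.0266). Elane (1305 to 2491 CPM), Prtn3 (894 to 1983 CPM) and Ptprc, encoding CD45 (223 to 293 CPM), were present in all libraries, while Mpo ranged from 28.0 CPM in KO 3 to 952 CPM in KO 1. Kit, the stem cell factor receptor gene, was lowest in the libraries numbered 3, at 28.5 CPM in f/f 3 and 1.34 CPM in KO 3, against 58.0 to 88.7 CPM in the other 4. Cd34 was at 4.68 CPM in KO 1 and 6.68 CPM in KO 3, the KO libraries with high S100a8 and S100a9, and at 33.6 to 39.2 CPM in the other 4. Cd177, Cxcr2, Chil3, Csf3r, Itgb2l, Myb, Kit, Cd34 and Itgam were named after their values were seen. The part of cell maturity in the S100 levels was not tested.

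Markers of other cells were low. Summed levels were at most 12.1 CPM for 8 erythroid, 21.0 CPM for 7 mast cell and basophil, 6.22 CPM for 6 B cell and 2.77 CPM for 7 T and NK cell markers, and Pax5, Ncr1 and Klrb1c had no read. The 6 megakaryocyte markers summed to 53.2 and 60.4 CPM in the libraries numbered 3 and 5.66 to 28.1 CPM in the others. Of 4 tested, 2 were called between numbers, with the higher level in number 3. Of 8 stromal and endothelial markers, 4 of 7 tested were called between numbers, with the higher level in number 3. Among them was Col1a1, at 13.8 and 16.7 CPM against 3.61 to 5.54 CPM. Most of that list's sum was Pecam1 (116 to 195 CPM), which leukocytes also express. The part of such cells in the results was not tested.

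Genes with the layout most like that of S100a8 and S100a9 were sought among those with at least 5 CPM, by the Pearson correlation of log2 CPM over the 6 libraries, as a description. Among the nearest were Arrdc1 (r = 0.997), Ltb4r1 (0.990), Neu1 (0.988), Scarb1 (0.985) and Snapc5 (0.978). Ltb4r1, which encodes the leukotriene B4 receptor of neutrophils, was at 6.22, 12.8 and 31.3 CPM for f/f 1, 2 and 3, against 41.0, 14.1 and 99.5 CPM for KO 1, 2 and 3. Neu1, encoding lysosomal sialidase, ranged from 106 to 202 CPM.

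Other genes came nearest to the remaining members. For S100a10 they were Gch1, Ap1s2 and Plp2 (r = 0.996 to 0.997), for S100a6 Slc7a7, Trpv2 and Slc31a2 (0.998 to 0.999) and for S100a11 Uap1l1, Msrb1 and Tmem38b (0.997 each). Slc31a2, a copper transporter family gene, was at 5.87, 6.87 and 54.9 CPM for f/f 1, 2 and 3, against 22.3, 14.9 and 83.6 CPM for KO 1, 2 and 3. Among the tested S100 genes themselves, r was highest, at 0.978, for S100a11 with S100a13 and lowest, at 0.62, for S100a9 with S100a10. It was 0.97 for S100a8 with S100a9 and for S100a11 with S100a1, 0.96 for S100a8 with S100a1, 0.95 for S100a8 with S100a11 and 0.94 for S100a10 with S100a6. These values set no pair apart from the rest. With 6 libraries that share their numbers, such values are high for many genes.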

How the data were processed

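The authors deposited a single table of raw counts per gene, with Ensembl identifiers. Tools listed in the submitters' processing notes are HTSeq, kallisto and DESeq2, with mm10 as build; their roles, the annotation and strand use were not given in the sources. Of 49585 identifiers, 49326 matched GENCODE release M21 (GRCm38) without the version. The unmatched held 0.00962% of counts. Genes were kept by filterByExpr (minimum count 10), scaled by TMM, and fitted with edgeR's robust quasi-likelihood test without a block, with Benjamini-Hochberg adjustment over all 13744 genes and a threshold of 0.05. The number test was a joint F test of both number coefficients in the model genotype plus number. Log values used a prior count of 2. Standard errors come from the F statistic, and RPKM from merged exon lengths. R 4.3.3 was used with DESeq2 1.42.0, limma 3.58.1 and edgeR 4.0.16.

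The S100 genes and all lists were chosen with earlier results of these data known. The genes named were, by rule, the members, Gata2, up to 4 genes of highest mean CPM per list, called genes of the receptor, partner and factor lists, and the genes of most similar layout at a mean of at least 5 CPM, without predicted models or antigen receptor genes. A gene that this rule also named is not reported here. Other genes named illustrate counts and were chosen after their values were seen. All reads lack molecular identifiers, so limits cover counting error only. Equal numbers were treated as pairs, because the log2 CPM deviations of f/f 1 and KO 1, f/f 2 and KO 2, and f/f 3 and KO 3 had correlations of 0.294, 0.555 and 0.653, each above 0.1. The correlation of f/f 1 with KO 2 was 0.455, higher than within number 1. The fits were tested on simulated data first. There the number test recovered 13.4% of genes changed 2-fold and 89.6% of those changed 4-fold. A gene not called between numbers may therefore still differ 2-fold. In the simulated data the comparison of genotypes recovered 44.8% of genes changed 2-fold and 97% of those changed 4-fold. In the libraries themselves the standard error of the log2 fold change between genotypes was 0.76 for S100a8 and 1.25 for S100a6. The simulated shares may therefore not hold for the genotype comparison here. The other settings were scaling by DESeq2's size factors or the upper quartile, other filters, DESeq2, limma voom, the replicate block and leaving out libraries.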

Additional observations from a re-analysis of the deposited data

How the results depend on the processing

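In the comparison of genotypes edgeR called 0 genes under both other scalings, both other filters, with the replicate block, without both libraries numbered 3 and without each library in turn (0 to 0), and limma voom called 0. DESeq2 called 7 genes, DESeq2 with the replicate block 222, and edgeR with the replicate block and without the library labelled Gata2 KO 2 called 54, S100a8 and S100a9 among them. The count between library numbers was 1249. It was 2348 with no filter on low counts, 2870 by DESeq2's likelihood ratio test, 444 without the genotype term, and 757 (without Gata2 KO 3) to 3460 (without Gata2 f/f 3) over single libraries left out; a fit of 5 libraries has a lone library for one number. S100a10 was called between numbers in every fit run for that comparison. Without the genotype term S100a6, S100a11 and S100a13 were not called (adjusted p = 0.0839, 0.101 and 0.118). Without a filter S100a1 was called (0.0349). With single libraries left out, the log2 fold change between genotypes ran from -1.33 to 2.15 for S100a10, from -0.73 to 3.33 for S100a6, from 0.57 to 2.08 for S100a8 and from 1.13 to 2.09 for S100a9, the lowest value each time without Gata2 KO 3. The contrast of S100a8 and S100a9 with the others, 0.61, ran from 0.21 to 0.96 and was 0.61 as the mean within numbers (replicate block). S100a4, which did not pass the filter, was left out of it. The ratio of S100a9 to S100a8, 0.884 on average, ran from 0.812 to 0.929. Depth did not limit the 7 tested genes, which had at least 84 reads each.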
